A study of Mus musculus with 9 samples.

Results

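Expression of 7 astroglial effector genes (Aqp4, S100b, Aldh1l1, Glul, Apoe, Clu and Sparcl1) and of 3 nuclear factor I genes (Nfia, Nfib and Nfix) was followed across 3 kinds of mouse neurosphere. All probe sets annotated to these 10 symbols were taken, which made 10 of the 18193 genes with a value and 33 of the 45101 probe sets on the array: 15 for the effectors and 18 for the NFI factors. A probe set is a group of short probes for 1 transcript or a few of its variants, and its value is given on the log2 scale. Of the 33 probe sets, 25 reached a value of 5 on at least 3 arrays and were tested, and 8 did not: all 3 of Aqp4, 2 of the 6 of Nfia, and 1 each of Aldh1l1, Nfib and Nfix.

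The spheres were free-floating colonies at passage 3, grown from C57BL/6J embryos at E12.5 in serum-free medium that held heparin, N2, B27, 20 ng/ml bFGF and 20 ng/ml EGF. BMP NCSC came from dorsal root ganglia (DRG, sensory ganglia formed by the neural crest) with 10 ng/ml BMP4 added, rNCSC came from DRG without BMP4, and SCSC came from spinal cord without BMP4. Each kind had 3 arrays. The labels do not say whether these came from separate embryos or cultures, and p-values cover no more than the spread among these 9 arrays.

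Astrocytes clear glutamate, buffer water and potassium, and secrete lipid carriers and matrix proteins that act on synapses. The NFI proteins are transcription factors that bind DNA as dimers. In the embryonic spinal cord, Nfia and Nfib take part in the switch of progenitors to making glia, and Nfia acts there with Sox9. S100b, Apoe, Clu and Glul are no astrocyte-only genes: S100b is also made by Schwann cells and chondrocytes, Apoe by macrophages, and Clu and Glul by many cells.

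Array medians lay between 3.98 and 4.03, and 38.7% to 39.9% of probe sets reached 5. The lowest correlation between arrays of 1 group was 0.986. The third rNCSC array stood furthest from its group, with 4.94% of tested probe sets at least 1 away from the mean of the other two, against 0.407% for the closest array, the second of SCSC. For the third BMP NCSC array this share was 3.85%. Gfap, the intermediate filament of mature astrocytes, averaged 3.67 in BMP NCSC, 3.28 in rNCSC and 3.27 in SCSC and did not reach 5 on any array. The astroglial label of the gene set was therefore not matched by its best-known marker in any kind of sphere, and the genes are described here by name. GCRMA, which made the values, compresses transcripts that are not expressed toward a low floor, so a difference that involves a mean under 4 has an uncertain size.

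In BMP NCSC against rNCSC the members went both ways. S100b and Clu rose, Glul and Aldh1l1 fell, and within the NFI genes 1 Nfix probe set rose and 1 Nfib probe set fell. Of the 25 tested member probe sets, 7 were called higher and 4 lower (limma, Benjamini-Hochberg adjusted p below 0.05 and a log2 difference of at least 1). Over all 19914 probe sets tested, 20.6% were called higher and 21.8% lower. The median difference was -0.21 over the member probe sets and -0.12 over all. In BMP NCSC against SCSC, 7 member probe sets were again called higher and 4 lower, beside 21.3% and 23.8% of all probe sets, with medians of 0.24 and -0.14. These were the same 11 probe sets as against rNCSC. The 7 were 4 of Clu, 2 of S100b and 1 of Nfix. The 4 were 2 of Glul, 1 of Aldh1l1 and 1 of Nfib. With 1 probe set a gene, 2 of 9 members were called higher and 2 lower in each comparison. Over all genes tested, 22.6% were called higher and 21.3% lower against rNCSC, and 22.9% and 24% against SCSC. Both comparisons use the same BMP NCSC arrays, and the one with SCSC differs in tissue of origin and in BMP4 together. They are bulk measurements, in which fewer cells of a type and less RNA per cell cannot be told apart.

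**Figure D1:**
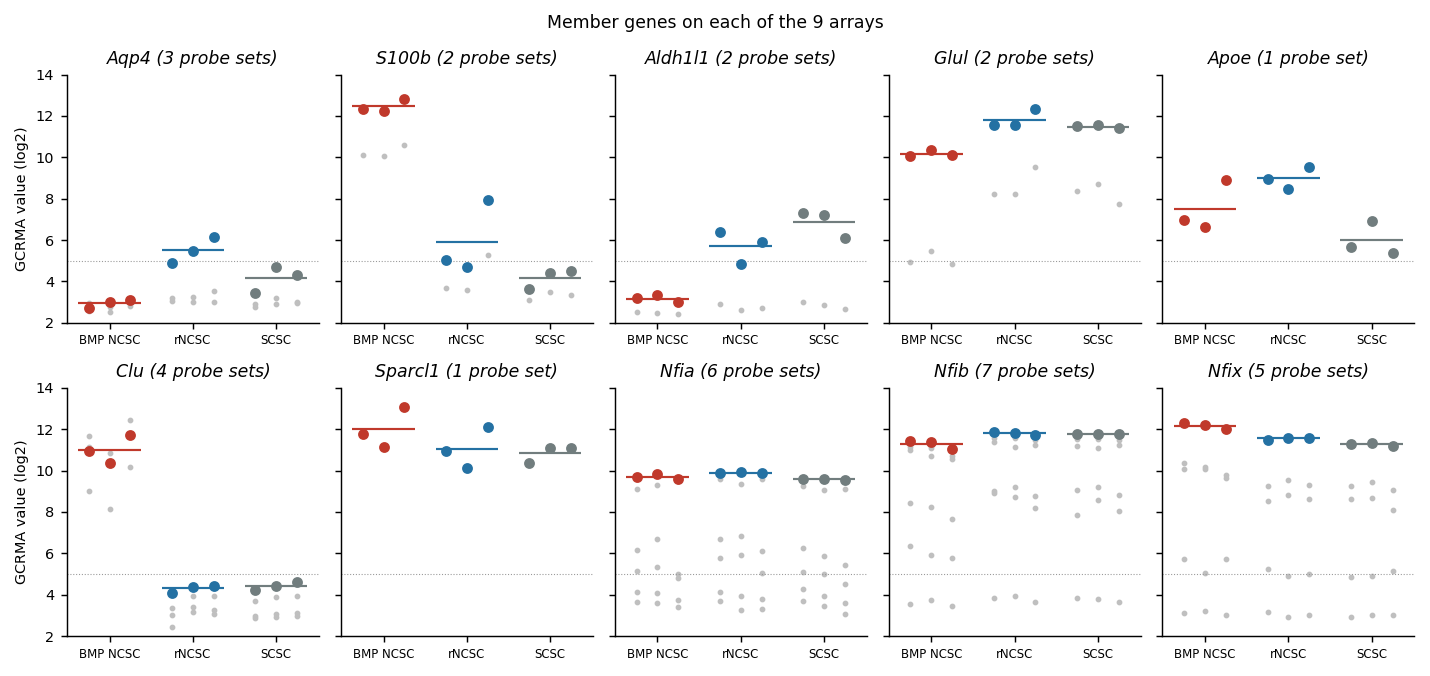
Log2 value of every array for the probe set with the highest mean of each member, with BMP NCSC left of rNCSC and SCSC. Large points are arrays, bars are their group means, small grey points are the gene's other probe sets, and the dotted line is the minimum of 5 used in the filter. The 3 large BMP NCSC points lie above all the others for S100b, Clu and Nfix, and below them for Glul, Aldh1l1, Aqp4 and Nfib.

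S100b, a calcium-binding protein, separated BMP NCSC from both other kinds of sphere. Its brighter probe set, 1434342_at, read 12.35, 12.25 and 12.82 on the BMP NCSC arrays, against 5.02, 4.69 and 7.95 in rNCSC and 3.64, 4.39 and 4.49 in SCSC. All BMP NCSC arrays were far above the rest, and the third rNCSC array stood well above the other rNCSC arrays. The difference from rNCSC was 6.59 (95% confidence interval 4.88 to 8.29, adjusted p = 4.91e-05), a 96.2-fold higher level, and it was 7.62 without the third rNCSC array. Against SCSC it was 8.30 (adjusted p = 1.03e-05). The second probe set, 1419383_at, read 10.12, 10.04 and 10.59 in BMP NCSC, against 3.67, 3.61 and 5.26 in rNCSC and 3.10, 3.48 and 3.33 in SCSC. It had the same order of groups and the third rNCSC array was again high. Its differences were 6.07 ± 0.40 (SE) and 6.94 ± 0.40. Neither S100b probe set would have passed the filter on low values without the BMP NCSC arrays, so passing favoured this direction. Tested with no filter, both were also called, with adjusted p against rNCSC of 6.09e-05 for 1434342_at and 1.73e-06 for 1419383_at.

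Clu, the secreted chaperone clusterin, was carried by 4 probe sets, and all 4 were called higher in BMP NCSC. Probe set 1437689_x_at read 11.70, 10.85 and 12.46 in BMP NCSC, against 2.44, 3.39 and 3.27 in rNCSC and 2.97, 3.06 and 2.97 in SCSC. For this probe set, levels without BMP4 were thus at the floor in spheres of either tissue. The difference from rNCSC was 8.63 ± 0.39 (SE, adjusted p = 1.47e-07), and that from SCSC 8.67. Over the 4 probe sets, the differences ran from 6.04 to 8.63 against rNCSC and from 6.17 to 8.67 against SCSC. Probe set 1418626_a_at gave the smallest, with 9.02, 8.16 and 10.19 in BMP NCSC, against 3.04, 3.18 and 3.04 in rNCSC and 2.87, 2.90 and 3.09 in SCSC. In both of these probe sets, the third BMP NCSC array was the highest and the second the lowest. All 4 passed the filter on low values only through the BMP NCSC arrays, so their direction followed from passing. They were also called when all probe sets were tested with no filter, with adjusted p against rNCSC between 1.34e-07 and 2.1e-06.

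Markers of cell types other than astrocytes, some of which make these proteins, also differed between the spheres. The 12 cartilage markers had a summed linear level of 64350 to 86579 on the BMP NCSC arrays, against 2153 to 2745 in rNCSC and 2138 to 2246 in SCSC, and 6 of 8 tested were called higher against rNCSC. The 11 satellite glia and Schwann cell markers summed to 14638 to 16373 in BMP NCSC, 3646 to 5762 in rNCSC and 5108 to 5729 in SCSC, and 5 of 9 tested were called higher and 3 lower against rNCSC. Over all genes tested, 22.6% were called higher and 21.3% lower in that comparison. The 10 fibroblast markers summed to 14833 to 28313 in BMP NCSC, against 137 to 476 in rNCSC and 112 to 164 in SCSC. Endothelial and mural cell markers summed to 3295 to 6232 in BMP NCSC and 100 to 105 in rNCSC, with 2 of 10 at 5 on all BMP NCSC arrays. Ependymal markers summed to 183 to 402 and 75 to 98, with 1 of 7 at 5. Neuron markers overlapped, at 268 to 934 in BMP NCSC and 835 to 1718 in rNCSC. Gene by gene, 8 cartilage, 7 Schwann and 7 fibroblast markers reached 5 on all BMP NCSC arrays, against 3, 6 and 0 on all rNCSC arrays. Cartilage markers that passed the filter on low values only through the BMP NCSC arrays could not be called lower. Passing thus favoured the higher direction in the counts of called markers. The part of all these markers in the S100b and Clu differences was not tested.

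Glul, glutamine synthetase, which turns glutamate taken up by astrocytes into glutamine, fell. Its brighter probe set, 1426236_a_at, read 10.07, 10.35 and 10.10 in BMP NCSC, against 11.54, 11.57 and 12.35 in rNCSC and 11.51, 11.55 and 11.40 in SCSC. The BMP NCSC arrays lay below all the others, at a level that was still high. The difference was -1.65 against rNCSC (95% confidence interval -2.12 to -1.17, adjusted p = 9.98e-05) and -1.32 against SCSC (adjusted p = 0.000391). The dimmer probe set, 1426235_a_at, read 4.96, 5.46 and 4.84 in BMP NCSC, against 8.23, 8.20 and 9.52 in rNCSC and 8.35, 8.70 and 7.72 in SCSC. Its difference was wider, at -3.56 against rNCSC (95% confidence interval -4.44 to -2.68) and -3.17 against SCSC. Both probe sets had the third rNCSC array as their highest.

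Aldh1l1, a folate enzyme used as a pan-astrocyte marker, fell to the floor. Probe set 1424400_a_at read 3.20, 3.33 and 2.98 in BMP NCSC, against 6.40, 4.84 and 5.89 in rNCSC and 7.31, 7.20 and 6.08 in SCSC. No BMP NCSC array overlapped the others, and the probe set passed the filter on low values through rNCSC and SCSC arrays alone. The difference was -2.54 ± 0.43 (SE) against rNCSC (adjusted p = 0.000588) and -3.69 against SCSC (adjusted p = 5.09e-05), and with no filter it was called as well (adjusted p = 0.000769 and 6.23e-05). The other Aldh1l1 probe set, 1424401_at, stayed between 2.44 and 2.98 on every array and was not tested.

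Aqp4, the water channel of astrocyte endfeet, was near the floor. Probe set 1434449_at read 2.69, 2.99 and 3.12 in BMP NCSC, against 4.89, 5.47 and 6.14 in rNCSC and 3.45, 4.69 and 4.29 in SCSC. The groups stood in the order rNCSC, SCSC and BMP NCSC, with no overlap between any pair of them. Since 2 arrays reached 5, it was not among the probe sets tested. With no filter on low values its difference was -2.57 against rNCSC (95% confidence interval -3.38 to -1.75, adjusted p = 0.000286) and -1.20 against SCSC (adjusted p = 0.021), both called lower. The difference between rNCSC and SCSC was 1.36 there (adjusted p = 0.277). The other 2 Aqp4 probe sets lay between 2.51 and 3.51 on all arrays.

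Promoters of effectors that went opposite ways are shown because the NFI factors bind short DNA motifs that can be read in them. The sequences are those of RefSeq on GRCm38.p6, from 250 bases before to 50 after the transcript start, 5′ to 3′, and capitals mark each copy of TTGGC or its reverse complement GCCAA, the core that 1 NFI subunit contacts.
S100b (chr10:76253586-76253885, plus strand): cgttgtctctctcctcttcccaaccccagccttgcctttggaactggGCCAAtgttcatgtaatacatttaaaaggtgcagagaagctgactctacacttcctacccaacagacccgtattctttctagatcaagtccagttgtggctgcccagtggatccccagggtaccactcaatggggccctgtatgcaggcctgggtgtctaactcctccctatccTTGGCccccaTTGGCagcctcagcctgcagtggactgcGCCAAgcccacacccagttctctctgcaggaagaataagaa
Glul (chr1:153899679-153899978, plus strand): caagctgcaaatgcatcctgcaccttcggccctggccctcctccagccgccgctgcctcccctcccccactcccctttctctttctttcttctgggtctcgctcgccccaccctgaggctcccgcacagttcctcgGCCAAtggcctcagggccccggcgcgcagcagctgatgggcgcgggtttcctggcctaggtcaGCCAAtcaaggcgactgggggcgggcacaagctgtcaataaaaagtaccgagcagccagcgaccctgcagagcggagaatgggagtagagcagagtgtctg
Aldh1l1 (chr6:90550543-90550842, plus strand): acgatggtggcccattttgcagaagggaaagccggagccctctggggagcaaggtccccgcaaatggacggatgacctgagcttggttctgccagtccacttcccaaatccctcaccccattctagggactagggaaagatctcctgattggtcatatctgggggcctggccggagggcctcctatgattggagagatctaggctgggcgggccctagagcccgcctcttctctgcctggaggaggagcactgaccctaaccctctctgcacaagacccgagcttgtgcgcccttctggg
S100b, which rose, had 4 copies, at -203 to -199, -29 to -25, -19 to -15 and 10 to 14 from the start, none overlapping another. Glul, which fell, had 2 copies, at -114 to -110 and -51 to -47. Both Glul copies, and 2 of those in S100b, ran on into the letters CCAAT, the motif of another factor. Aldh1l1, which also fell, had none in this window. Of 32851 promoters of this length, 46.7% held at least 1 copy, 14.4% at least 2 and 0.77% at least 4. The full palindrome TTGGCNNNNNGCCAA occurred in 12 of them, none of a member. Promoters were found for 6 of the 10 members, 11 promoters in all, of which 7 held a copy. A match in letters is no evidence of binding.

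Apoe, the main lipid carrier of the brain, was the member with the widest separation between the spheres without BMP4. It read 6.95, 6.63 and 8.91 in BMP NCSC, 8.96, 8.45 and 9.55 in rNCSC and 5.66, 6.90 and 5.37 in SCSC. The BMP NCSC arrays overlapped both other groups, through the third array at the top and the second at the bottom. The difference from rNCSC was -1.49 (95% confidence interval -2.93 to -0.05, adjusted p = 0.0573), and that from SCSC 1.52 (95% confidence interval 0.08 to 2.96, adjusted p = 0.0532), so neither was called. Neither result was stable. Without the third BMP NCSC array the difference from rNCSC was -2.20 (adjusted p = 0.00365) and called. Against SCSC it was called without the second BMP NCSC array (1.95, adjusted p = 0.0296) or without the second SCSC array (1.98, adjusted p = 0.0259), and without the second SCSC array the difference from rNCSC was called too (adjusted p = 0.0483). With all arrays kept, Apoe was called against rNCSC with array weights (-1.79, adjusted p = 0.0145) and against SCSC with trend and robust variances (adjusted p = 0.0467). The 10 microglia and macrophage markers did not reach 5 on all arrays of any group, and summed to 85 to 92 in BMP NCSC, 95 to 107 in rNCSC and 91 to 107 in SCSC.

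Sparcl1, the matricellular protein hevin, was above 10 on every array. It read 11.79, 11.16 and 13.07 in BMP NCSC, 10.94, 10.11 and 12.13 in rNCSC and 10.39, 11.09 and 11.09 in SCSC. The third arrays of BMP NCSC and rNCSC were the highest of their groups, and BMP NCSC overlapped rNCSC but lay above SCSC. The difference was 0.95 against rNCSC (95% confidence interval -0.39 to 2.28, adjusted p = 0.17) and 1.15 against SCSC (95% confidence interval -0.18 to 2.48, adjusted p = 0.101), and neither was called. Without the third rNCSC array, the difference from rNCSC was 1.48 and called (adjusted p = 0.0343). Without the second BMP NCSC array, that from SCSC was 1.57 and called (adjusted p = 0.0468), and with array weights it was 1.09 and called (adjusted p = 0.029). With the replicate number as a block, the difference from SCSC was called too (adjusted p = 0.0312). The labels do not say that a number marks a shared litter, batch or day.

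**Figure D2:**
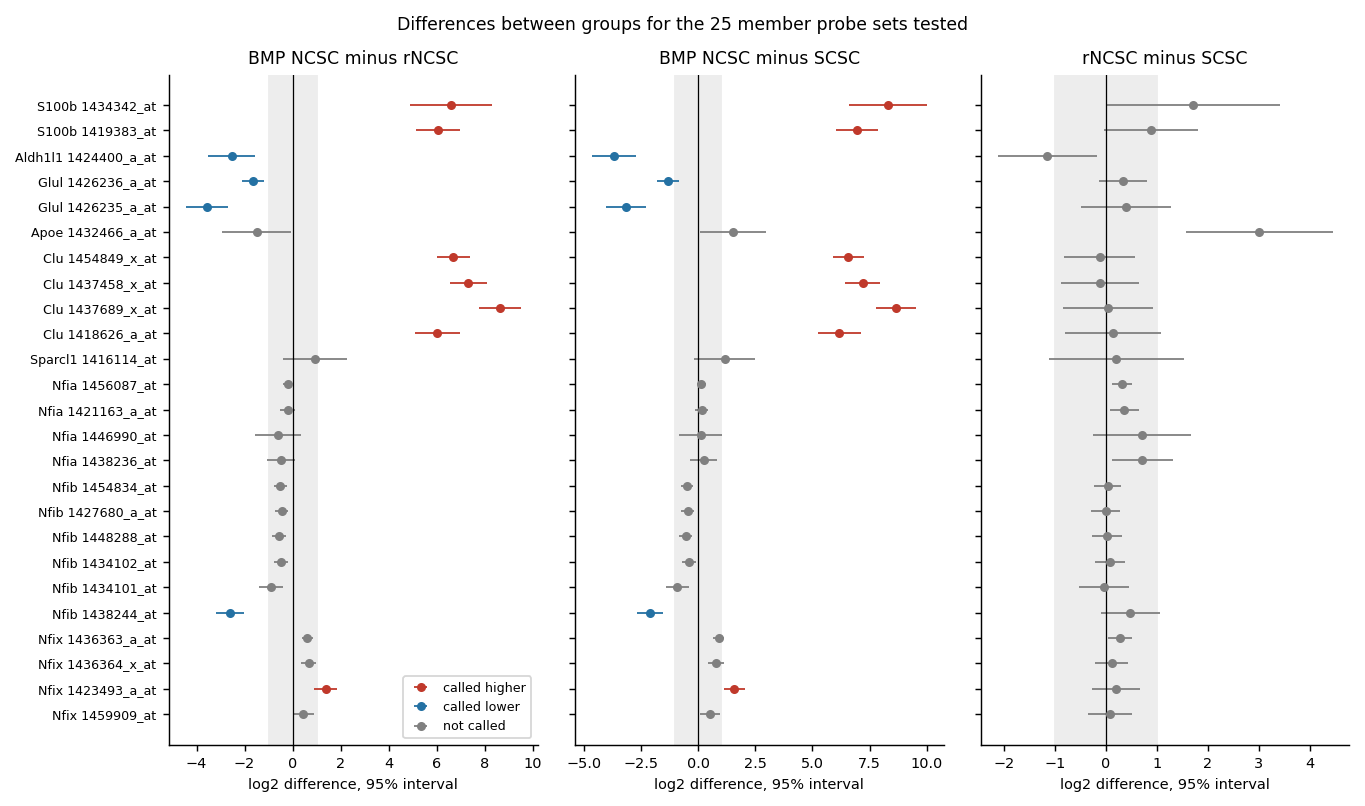
Log2 difference of every tested member probe set in the 3 comparisons, as points with 95% confidence intervals from limma, red where called higher, blue where called lower and grey where not called. Grey bands span -1 to 1, and the 3 axes differ in range. S100b and Clu lie at 6.04 and above in BMP NCSC against rNCSC, the called Glul, Aldh1l1 and Nfib points lie at -1.65 and below, and every point is grey in rNCSC against SCSC.

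The NFI genes each had probe sets that reached 5 on all arrays of the 3 kinds of sphere. Of their 14 tested probe sets, 1 of Nfix was called higher and 1 of Nfib lower in both comparisons with BMP NCSC, and none of Nfia was called. Over all probe sets tested, 20.6% were called higher and 21.8% lower against rNCSC, and 21.3% and 23.8% against SCSC. Across genes the signs split: against rNCSC, all 4 tested Nfix probe sets had a positive difference, all 6 of Nfib a negative one and all 4 of Nfia a negative one. Neither quantile normalization nor median centring turned any of these signs.

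Nfia, the factor best known from the onset of gliogenesis, differed little. Its brightest probe set, 1456087_at, read 9.70, 9.81 and 9.60 in BMP NCSC, 9.86, 9.93 and 9.86 in rNCSC and 9.60, 9.60 and 9.53 in SCSC. The BMP NCSC arrays lay below those of rNCSC and above those of SCSC by small margins, with no overlap. The difference was -0.18 against rNCSC (95% confidence interval -0.38 to 0.02, adjusted p = 0.0906) and 0.13 against SCSC (adjusted p = 0.214). Probe set 1421163_a_at read 9.09, 9.29 and 9.49 in BMP NCSC, 9.57, 9.34 and 9.60 in rNCSC and 9.25, 9.06 and 9.11 in SCSC, with differences of -0.21 and 0.15. Of the 2 dimmer tested probe sets, 1446990_at had the widest interval, -1.56 to 0.35 around -0.61 against rNCSC. The other, 1438236_at, had -1.07 to 0.12 around -0.48. The interval thus reached past -1 for both dimmer probe sets and not for 1456087_at.

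Nfib, which like Nfia takes part in the switch to making glia, was lower in BMP NCSC at every tested probe set. All 6 had an adjusted p below 0.05 and arrays that did not overlap, against both rNCSC and SCSC. Over all probe sets tested, 74.9% had such an adjusted p against rNCSC at any size, 76.7% against SCSC, and the arrays lay below without overlap in 42.8% and 45%. Probe set 1438244_at passed the limit of size. It read 6.34, 5.92 and 5.79 in BMP NCSC, against 8.94, 8.74 and 8.18 in rNCSC and 7.83, 8.56 and 8.03 in SCSC. All BMP NCSC arrays were clearly below the rest. The difference was -2.60 against rNCSC (95% confidence interval -3.18 to -2.02, adjusted p = 1.91e-05) and -2.12 against SCSC (adjusted p = 6.51e-05).

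The other 5 Nfib probe sets differed by -0.88 to -0.46 against rNCSC and by -0.92 to -0.41 against SCSC. Nfib 1454834_at, among the brightest, read 11.45, 11.36 and 11.04 in BMP NCSC, against 11.87, 11.80 and 11.74 in rNCSC and 11.77, 11.75 and 11.77 in SCSC, a difference of -0.52 from rNCSC (adjusted p = 0.00331). Nfib 1434101_at read 8.43, 8.22 and 7.65 in BMP NCSC, against 9.01, 9.21 and 8.75 in rNCSC and 9.04, 9.22 and 8.80 in SCSC. In all 3 of these probe sets, the third BMP NCSC array was the lowest. Nfib 1434101_at, at -0.88, passed the limit of size without the first BMP NCSC array (-1.05) or the third rNCSC array (-1.01). The probe sets of Nfib therefore disagreed on size and agreed on sign, and the files do not say which transcript variants each one reads.

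Nfix, an NFI member known for progenitor quiescence and later glial maturation, had the opposite sign. Probe set 1423493_a_at read 10.35, 10.10 and 9.66 in BMP NCSC, against 8.54, 8.80 and 8.61 in rNCSC and 8.60, 8.66 and 8.10 in SCSC. All BMP NCSC arrays were above the rest. It rose by 1.38 against rNCSC (95% confidence interval 0.91 to 1.85, adjusted p = 0.000284) and by 1.58 against SCSC (adjusted p = 0.000114). The brightest Nfix probe set, 1436363_a_at, read 12.31, 12.19 and 12.00 in BMP NCSC, against 11.49, 11.58 and 11.59 in rNCSC and 11.28, 11.34 and 11.21 in SCSC. Its groups did not overlap, but the differences of 0.61 (adjusted p = 0.000578) and 0.89 (adjusted p = 5.01e-05) were under the limit of size. Nfix 1436364_x_at had 0.67 and 0.77, and the dim 1459909_at 0.44 (adjusted p = 0.0632) and 0.52 (adjusted p = 0.0335).

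Nfic, the remaining NFI gene and not a member, is given beside them. It read 8.56, 8.47 and 8.30 in BMP NCSC, against 5.82, 5.98 and 6.72 in rNCSC and 6.12, 5.97 and 6.01 in SCSC. Its arrays were apart, and it was called higher, by 2.27 ± 0.21 (SE) against rNCSC and 2.41 against SCSC. The NFI genes as a family thus had called probe sets in both directions in BMP NCSC.

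The last comparison asked how DRG spheres without BMP4 differed from spinal cord spheres, and no member was called. With limma, 0 of 25 member probe sets were called in either direction, as were 0% of all probe sets higher and 0.00502% lower, which is 1 probe set. At an unadjusted p below 0.05 there were 7 member probe sets, beside 2594 of all probe sets, which is 13%. They belonged to Nfia, with several, and to S100b, Aldh1l1, Apoe and Nfix. The arrays of rNCSC lay above those of SCSC without overlap in 6 member probe sets, beside 6.38% of all, and below in 0, beside 13%. The 6 were 2 of S100b, 2 of Nfia, 1 of Apoe and 1 of Nfix, and probe sets of 1 gene are not independent. The median difference was 0.20 over the member probe sets and -0.03 over all.

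Apoe was the member with the greatest difference, 3.01 higher in rNCSC than in SCSC (8.06-fold, 95% confidence interval 1.57 to 4.45), with groups that did not overlap. Its unadjusted p was 0.00118 and its adjusted p 0.185, and over the alternatives the adjusted p ran between 0.0605 and 0.601, so it was not called at this number of arrays. S100b 1434342_at was 1.71 higher (adjusted p = 0.382) and 0.68 higher without the third rNCSC array. Aldh1l1 went the other way, at -1.16 (95% confidence interval -2.13 to -0.18, adjusted p = 0.315). The 4 Clu probe sets lay between -0.13 and 0.13, and both groups were at the floor in most of them. The 2 Glul probe sets differed by 0.33 and 0.39, Sparcl1 by 0.20, and Nfia 1456087_at by 0.31 (adjusted p = 0.235). The 6 Nfib probe sets differed by -0.03 to 0.48. A p that misses the threshold does not show that the groups are alike.

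The genes around the members were described from lists chosen by known role, with 1 probe set a gene. Of those named below, Agt, Apod, Aqp1, Trpv4, Thbs1 and Spock3 passed the filter on low values only through the BMP NCSC arrays. Acsbg1, Mlc1, Cspg5, Fabp7, Olig2, Hopx, Lrp8, Slc38a3, Tyms and Smoc1 passed through rNCSC and SCSC arrays alone. Id4 would not have passed without the BMP NCSC arrays. Passing thus favoured their direction, and the list counts share this limit. All were also called against rNCSC with no filter. They were named for their large called differences from rNCSC, so this repeat call is no independent support. Over all 10319 genes tested, 22.6% were called higher and 21.3% lower in BMP NCSC against rNCSC, with a median of -0.07, and 22.9% and 24% against SCSC. Among other astrocyte genes, 5 of 23 were called higher and 12 lower against rNCSC, with a median of -1.16. Id4, an inhibitor of basic helix-loop-helix factors, averaged 11.49 in BMP NCSC, 4.69 in rNCSC and 3.71 in SCSC, a difference of 6.80 ± 0.32 (SE) from rNCSC. Fgfr3, a growth factor receptor, and Agt, angiotensinogen, were also called higher, by 3.01 ± 0.58 and 2.78 ± 0.57. Acsbg1, a fatty acid enzyme, fell by 7.93, to the floor. Mlc1, a membrane protein of astrocyte endfeet, fell by 6.80, and the proteoglycan Cspg5 fell by 5.56. Slc1a3, the glutamate transporter GLAST, averaged 8.29 ± 1.32 in BMP NCSC, 12.58 ± 0.28 in rNCSC and 12.17 ± 0.083 in SCSC (SD, n = 3), and fell by 4.29.

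Gliogenic regulators and known partners or targets of NFIA and SOX9 split, with 7 of 21 called higher and 8 lower against rNCSC and a median of -0.83. Il6st, the shared receptor of gliogenic cytokines, rose by 3.99 ± 0.13, and Id1, a direct BMP target, by 3.20 ± 0.25. The radial glial lipid carrier Fabp7 fell by 11.39, Olig2, the oligodendrocyte and motor neuron factor, by 10.63, and Hopx by 5.67. Sox9 averaged 7.96 in BMP NCSC, 8.73 in rNCSC and 8.92 in SCSC, and its difference of -0.77 from rNCSC (adjusted p = 0.0109) was under the limit of size. Of 3 genes known as joint targets of NFIA and SOX9, Zcchc24 fell by 1.32 and Mmd2 by 4.43, and Apcdd1 was not called. Apcdd1 read 5.60, 5.87 and 8.98 in BMP NCSC, a difference of -0.83 from rNCSC (adjusted p = 0.369), and without the third BMP NCSC array it was -1.92 (adjusted p = 0.00198).

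Genes that work beside single effectors were also counted. Around Apoe, 7 of 11 lipoprotein and sterol genes were called higher and 2 lower against rNCSC, with a median of 1.90. Apod, another lipid carrier, averaged 11.50 in BMP NCSC, 2.93 in rNCSC and 2.79 in SCSC, and Lrp1, an Apoe receptor, rose by 3.60 ± 0.30 while the receptor Lrp8 fell by 2.51. Around Glul, 1 of 10 glutamate and glutamine genes was called higher and 5 lower, with a median of -0.67. The glutamine carrier Slc38a1 averaged 5.27 in BMP NCSC, 11.03 in rNCSC and 11.01 in SCSC, and Slc38a3 fell by 4.32. Slc1a4, a neutral amino acid carrier, was the called higher gene, by 1.75 ± 0.15.

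Around Aqp4, 4 of 7 tested genes were called higher and 1 lower. Aqp1, the water channel of choroid plexus and of some sensory neurons, averaged 11.11 ± 1.26 in BMP NCSC, 2.88 ± 0.054 in rNCSC and 2.85 ± 0.081 in SCSC (SD, n = 3). Utrn, a relative of dystrophin, rose by 2.72 ± 0.12, and the channel Trpv4 by 5.97 ± 0.24. Dmd, dystrophin itself, had a difference of -1.17 against rNCSC, which was -0.89 and under the limit of size without the third rNCSC array. Around Aldh1l1, 2 of 10 folate enzymes were called higher and 4 lower. The mitochondrial relative Aldh1l2 rose by 1.61 ± 0.20 and Mthfd2 by 1.46 ± 0.17, while thymidylate synthase, Tyms, fell by 3.30 and Shmt1 by 3.13. Around Sparcl1, 8 of 9 SPARC family and matricellular genes were called higher and 1 lower, with a median of 2.77. Thbs1, thrombospondin, rose by 7.84 ± 0.22, Spock3 by 7.41 ± 0.42 and Gpc6, a glypican, by 4.36 ± 0.15, and Smoc1 fell by 6.38.

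**Figure D3:**
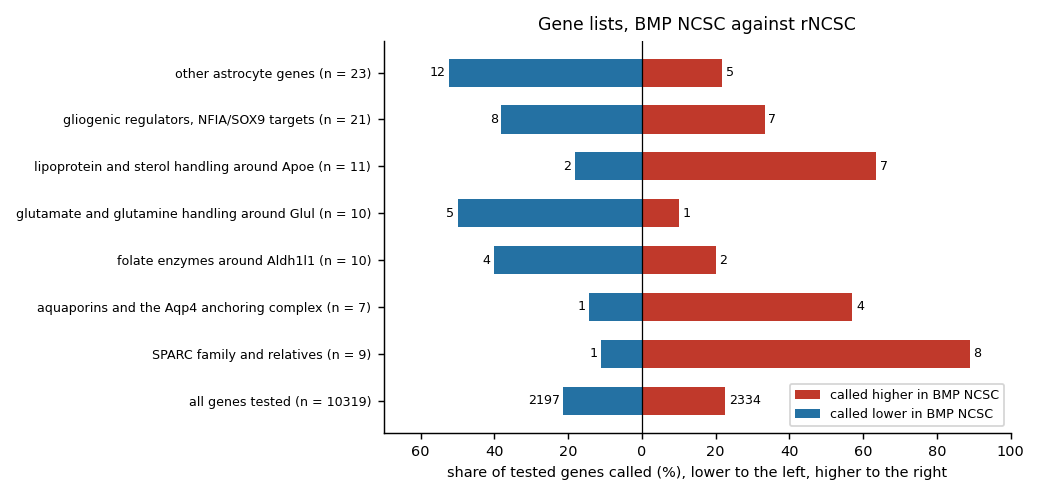
Share of the tested genes of each of the 7 lists around the members that were called higher (red, to the right) or lower (blue, to the left) in BMP NCSC against rNCSC, in percent, with the number of called genes at each bar. The SPARC family list has 8 of 9 genes on the higher side and the astrocyte list 12 of 23 on the lower side, beside 22.6% and 21.3% of all genes tested.

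Against SCSC, the counts for these lists were 6 of 23 astrocyte genes called higher and 12 lower, 7 and 8 of 21 gliogenic regulators, 8 and 2 of 11 lipoprotein genes, 1 and 4 of 10 glutamate genes, 5 and 0 of 7 aquaporin genes, 2 and 4 of 10 folate enzymes and 8 and 1 of 9 SPARC family genes. In rNCSC against SCSC, limma called 0 genes of any of these lists, beside 0% of all genes higher and 0.00969% lower. The 11 oligodendrocyte lineage markers summed to 3354 to 4414 on the BMP NCSC arrays, against 17397 to 21502 in rNCSC and 19096 to 21205 in SCSC. Of them, 1 reached 5 on all BMP NCSC arrays, against 5 on all rNCSC and 6 on all SCSC arrays. Against rNCSC, 1 of 6 tested was called higher and 5 lower, beside 22.6% and 21.3% of all genes tested. Passing the filter on low values favoured the lower direction here. The part of these markers in the lower astrocyte genes was not tested.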

How the data were processed

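TRIzol and spin columns gave the RNA of 9 samples, 3 a group, which was hybridised as biotinylated cRNA, per the labels' protocols. The deposited log2 values were made by the authors with GCRMA, per the submitters' processing notes. No source used here gives its version. Groups and replicate numbers came from sample titles. Of 45101 probe sets, 64 controls were left out. In the platform annotation 34958 had 1 symbol, 932 had several (none with a member) and 9211 were unlisted. Symbols were checked against the RefSeq gene table of GRCm38.p6, which held the gene of 34754 of the probe sets with 1 symbol.

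Group means over all 9 arrays were fitted with limma 3.58.1 in R 4.3.3 (eBayes, two-sided). Probe sets at 5 or more on at least 3 arrays (19914) were tested, with Benjamini-Hochberg adjustment over all of them. A call needed an adjusted p below 0.05 and an absolute difference of at least 1. Intervals are 95% and come from the moderated fit (6 residual and 2.51 prior degrees of freedom). The number of arrays limits the precision. Linear levels summed over markers are powers of 2 of the values. The steps were tested on simulated data.

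All member probe sets are named or counted. Of each list around them, up to 3 genes each way with the greatest called difference from rNCSC were eligible to be named, plus Nfic, Gfap, Slc1a3, Sox9, Zcchc24, Mmd2 and Apcdd1, each through its probe set of greatest mean. Members and lists were chosen with earlier results of these data known. Alternatives covered normalization, filters, the fit, thresholds, a replicate block and leaving out each array. Protein sequences were not used here.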

Additional observations from a re-analysis of the deposited data

How the results depend on the processing

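Results were recomputed under 21 alternatives, 9 of which left out 1 array. Each member probe set had a value under 19 to 21 of them, since stricter filters and 1 probe set a gene left some out. None turned a called difference round, and no called member probe set lost its call where it was tested. Of 507 member results in each comparison, 13 gained a call against rNCSC, 16 in BMP NCSC against SCSC and 0 in rNCSC against SCSC. With 1 probe set a gene, 2 members were called higher and 2 lower in each comparison with BMP NCSC, since the called probe sets of Nfix and Nfib were not those of greatest mean. With no limit of size, which can only add calls, 9 member probe sets were called higher and 9 lower against rNCSC. Against SCSC they were 10 and 9. Over all probe sets 6705 were higher and 8211 lower against rNCSC, 6764 and 8501 against SCSC. With 1 probe set a gene, these counts were 2335 and 2197 against rNCSC and 2366 and 2473 against SCSC. For rNCSC against SCSC, the probe sets called lower over all numbered 0 with the 6 arrays alone, with trend and robust variances, with a replicate block and at an adjusted p below 0.01. With array weights, 12 were higher and 4 lower. Leaving out 1 array gave 0 to 25 higher and 0 to 58 lower, with 25 and 58 reached without the second rNCSC array. It gave 7 to 8 member probe sets higher and 4 to 5 lower in BMP NCSC against rNCSC, and 7 to 9 and 4 to 5 in BMP NCSC against SCSC. Over all 19914 probe sets, the counts beside these were 4048 to 4198 higher and 4261 to 4450 lower against rNCSC. Against SCSC they were 4180 to 4308 and 4627 to 4878. The cause of these shifts was not tested.

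The labels do not say that a replicate number marks a shared litter, batch or day. The main test therefore used no block. Arrays of the same number correlated at 0.0542 to 0.352 in their deviations from the group means, and 16 of 18 matched their own number best. What the shared numbers stand for was not tested. With the replicate number as a block, 7 member probe sets were called higher and 4 lower against rNCSC, beside 4104 and 4337 of all 19914. Against SCSC they were 8 and 4, where Sparcl1 was added (adjusted p = 0.0312), beside 4249 and 4749 of all. With 3 arrays a group, whether Apoe and Sparcl1 were called depended on the setting, and values under 4 have no reliable order.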

Other observations

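The third rNCSC array was the highest of its group for Aqp4 1434449_at, both S100b and both Glul probe sets, Apoe and Sparcl1. Over the 25 tested member probe sets it was the highest of its group in 10 and the lowest in 6, beside 36.9% and 36.9% of all tested probe sets. It was also highest there for the mean of the fibroblast markers, at 3.77 against 3.24 and 3.23 on the other rNCSC arrays, all of them under 4. The third BMP NCSC array was the highest of its group for S100b, all Clu probe sets, Apoe and Sparcl1. Over the 25 it was the highest in 10 and the lowest in 14, among them all 6 of Nfib, beside 33.2% and 42.5% of all tested probe sets. Among the genes around the members, it was highest for Aqp1, with 9.81, 11.18 and 12.34 on the BMP NCSC arrays, and for Slc1a3, with 7.13, 8.01 and 9.73, whose difference from rNCSC was negative. Whether these arrays differ in culture or in handling was not tested.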
